A study of Mus musculus with 15 samples.

Results

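The genes described here are the chemokine ligands and the classical chemokine receptors of the mouse, measured in the hippocampus of male mice whose corticosteroid receptor genes had been deleted in the forebrain. They were taken by a symbol that starts with Ccl, Cxcl, Cx3cl, Xcl, Ccr or Cxcr followed by a digit, with Cx3cr1 left out, and 50 of the 31758 genes on the array are described. They comprised 20 CC ligands, 12 CXC ligands, 1 CX3C ligand, 1 XC ligand, 10 CC receptors and 6 CXC receptors, read by 62 probes. Of these genes, 38 had 1 probe and 12 had 2 probes.

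All mice were male, on the C57BL/6 strain and about 2.5 months old, and RNA came from the whole hippocampus of both hemispheres. The 4 dflox controls carried floxed alleles of the glucocorticoid receptor gene (GR, Nr3c1) and of the mineralocorticoid receptor gene (MR, Nr3c2) without Cre. The 4 GREmx1-cre mice came from a floxed GR allele crossed with Emx1-Cre, the 4 MREmx1-cre mice from a floxed MR allele crossed with Emx1-Cre, and the 3 GRMREmx1-cre mice from both floxed alleles with Emx1-Cre. The comparisons ask how loss of GR, of MR or of both changes transcript levels. Emx1-Cre acts in the excitatory neuron and glial lineage of the dorsal forebrain, so that microglia, blood vessels and blood cells keep their receptors. No group carried Cre without a floxed allele, and each genotype lay alone on 1 of 4 slides, so the effect of a slide and that of a genotype cannot be told apart. In a whole tissue, fewer cells of a type and less RNA per cell cannot be told apart. The labels number the samples within a group but do not say that each came from a separate mouse, so p-values measure only the spread between these samples, which may be technical.

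Chemokines are small secreted proteins that steer the movement of cells. CC and CXC ligands are named by the spacing of their first cysteines, and they act on G protein-coupled receptors of the matching class, which white blood cells, microglia and some neurons carry. Several ligands are induced by inflammatory transcription factors such as NF-kB, and glucocorticoids acting through GR are known to restrain many of them. In the brain, Cx3cl1 is made by neurons and signals to microglia, and Cxcl12 and Cxcl14 are made by neurons and other resident cells.

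Levels are log2 intensities relative to the 75th percentile of their array, so a level of 0 is as bright as that percentile and each unit is a doubling. That percentile was 821 to 1027 intensity units, and each array had 28083 to 30206 probes well above background. Differences are log2 differences ± standard error (SE) from 1 limma fit over all arrays, and a gene is said to have risen or fallen where its Benjamini-Hochberg adjusted p over 22864 tested genes was below 0.05. The Nr3c1 level was 1.49 to 1.79 on the dflox arrays and 2.08 to 2.28 on the MREmx1-cre arrays, but only -0.66 to -0.53 with GREmx1-cre and -0.08 to 0.09 with GRMREmx1-cre. The Nr3c2 level was -3.65 to -3.36 on the dflox arrays and overlapped them in MREmx1-cre, at -3.76 to -3.46. With GREmx1-cre it lay above every dflox array, at -3.15 to -3.04, and with GRMREmx1-cre below every one, at -4.01 to -3.71. The place of its probe relative to the deleted stretch is not stated in the labels, so it does not check the MR deletion.

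Chemokine transcripts in the hippocampus were mostly dim. Of the 50 genes, 29 were well above background on at least 3 arrays and were tested, and 23 of these were well above background on all 15 arrays. The 6 others were Ccl3 on 14 arrays, Cxcr3 on 13, Ccl8 on 10, Cxcl1 on 5, Ccl7 on 4 and Cxcl13 on 3. The 21 genes that were not tested were Ccl1, Ccl11, Ccl20, Ccl22, Cxcl2, Cxcl3, Cxcl9, Cxcl15, Cxcl17, Xcl1, Ccr1, Ccr1l1, Ccr2, Ccr4, Ccr7, Ccr8, Ccr10, Cxcr1, Cxcr2, Cxcr5 and Cxcr6. Of those, 16 were not well above background on any array. The receptor Ccr2, which marks circulating monocytes, and Ccr7, which marks lymphocytes and mature dendritic cells, were among them.

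**Figure D1:**
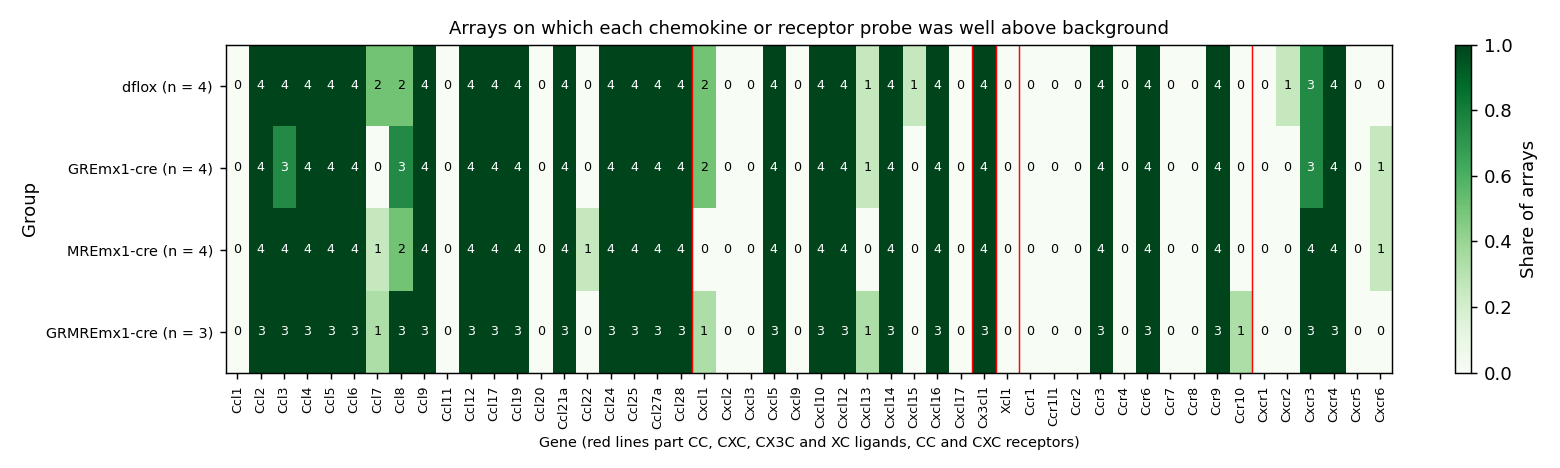
Number of arrays on which the probe of each chemokine or receptor gene (horizontal axis, ordered by role) was well above background in each group (vertical axis), with the colour giving the share of the group's arrays. The columns split into genes seen on all 15 arrays (23 genes), genes seen on none (16 genes) and a few between.

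The ligands well above background on all arrays included those that resident brain cells are known to make. Cx3cl1, the neuronal ligand, ran from 6.04 to 6.43 over the 15 arrays with a median of 6.28, and its differences from dflox were 0.20 ± 0.0716 in GREmx1-cre, 0.06 ± 0.0716 in MREmx1-cre and 0.02 ± 0.0773 in GRMREmx1-cre. None passed the test, with limma adjusted p-values of 0.15, 0.662 and 0.922. Cxcl14 ran from 3.35 to 3.86 with a median of 3.62, and Cxcl12, the ligand of Cxcr4, from 1.78 to 2.38 with a median of 2.02. Neither passed the test in a comparison with dflox. A further probe of Cxcl12 disagreed with the probe used: in MREmx1-cre against dflox it differed by -0.52 ± 0.119 (adjusted p over all probes 0.0225, limma), while the probe used differed by 0.19 ± 0.106.

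Promoter sequences are shown for Ccl17, the ligand that fell on loss of GR alone, for the receptor Ccr3, and for the neighbouring ligands Cxcl1, Cxcl2 and Cxcl3, whose promoters hold NF-kB motifs. They come from the RefSeq promoter table of assembly GRCm38.p6, on the plus strand, and 38 of the 50 genes had an entry. The Ccl17 window is chr8:94810203-94810502, from -250 to 50 relative to the transcript start. The other windows are chr9:124021771-124021870 for Ccr3, chr5:90891135-90891234 for Cxcl1, chr5:90903789-90903888 for Cxcl2 and chr5:90785991-90786090 for Cxcl3. Capitals mark NF-kB motifs (GGG, any 2 bases, then TTTCC) and AP-1 motifs (TGANTCA).
Ccl17: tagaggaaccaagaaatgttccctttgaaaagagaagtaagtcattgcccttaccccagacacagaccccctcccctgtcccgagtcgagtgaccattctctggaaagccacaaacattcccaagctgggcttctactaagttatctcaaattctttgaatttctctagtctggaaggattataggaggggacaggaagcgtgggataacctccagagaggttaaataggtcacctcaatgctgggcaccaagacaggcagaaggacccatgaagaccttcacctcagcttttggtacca
Ccr3: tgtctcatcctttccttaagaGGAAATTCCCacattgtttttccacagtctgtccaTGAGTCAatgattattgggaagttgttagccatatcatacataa
Cxcl1: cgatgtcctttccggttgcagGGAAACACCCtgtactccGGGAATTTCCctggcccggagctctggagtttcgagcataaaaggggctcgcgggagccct
Cxcl2: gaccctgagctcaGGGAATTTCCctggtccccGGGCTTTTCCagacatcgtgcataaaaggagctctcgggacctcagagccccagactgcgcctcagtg
Cxcl3: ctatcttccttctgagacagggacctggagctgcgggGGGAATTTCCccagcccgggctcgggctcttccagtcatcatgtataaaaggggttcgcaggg
The NF-kB motif was present in 14.3% of the 42 promoter windows of these genes and in 1.63% of all 32851 windows of the same length. The genes with it were Ccl9, Ccl20, Ccr3, Cxcl1, Cxcl2 and Cxcl3. Only Ccr3 among them changed in a comparison, and Ccl20, Cxcl2 and Cxcl3 were well above background on 0 arrays. The AP-1 motif was present in 19.0% of the 42 windows and in 7.81% of all windows. The short GR motif AGAACA was present in 19.0% of both, and the full GR motif (GNACA, any 3 bases, then TGTNC) in 0 of the 42 windows and in 0.475% of all windows. Motifs were sought on both strands, the short GR motif may lie within the full one, and a match is a description of letters. The Ccl17 window held none of the NF-kB, AP-1 or GR motifs. Of the 10 genes that changed in at least 1 comparison, 7 had an entry, and Ccl4, Cxcl5 and Cxcl16 are named only.

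The ligand Ccl17 was lower in the mice lacking GR alone. In GREmx1-cre against dflox, 1 of the 29 tested genes fell and 0 rose, a share of 3.45% beside 3.15% of all tested genes. At an unadjusted p below 0.05 the count was 9, beside 19.1% of all tested genes. The gene that fell was Ccl17, a CC ligand that attracts Ccr4-bearing T cells, and without GREmx1-cre replicate 2 the count was 2, with Ccl28 higher. The median difference of the 29 genes was 0.15, beside 0.02 over all tested genes, and 21 of the 29 (72.4%) lay above 0, as did 55.7% of all tested genes. Among all tested genes with a mean level below -5, 62.2% lay above 0, with a median of 0.12. From -5 to -4 it was 62.9%, with a median of 0.08.

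Ccl17 stood at -1.88, -1.66, -1.70 and -1.74 in dflox and at -3.52, -3.03, -2.55 and -3.14 in GREmx1-cre. Every GREmx1-cre array was below every dflox array. The difference was -1.32 ± 0.173 (limma adjusted p = 0.0026), which left 40.1% of the dflox level. In MREmx1-cre it stood at -2.27, -2.24, -2.34 and -1.89, again below every dflox array but with a difference of -0.44 ± 0.173 that did not pass the test (limma adjusted p = 0.153). In GRMREmx1-cre it stood at -2.05, -1.70 and -1.60, which overlaps dflox, with a difference of -0.04 ± 0.187. Ccl17 was thus lowest in the mice that lost GR alone, and its levels in GRMREmx1-cre lay above every GREmx1-cre array. Against GREmx1-cre it was higher by 1.28 ± 0.187 in GRMREmx1-cre (limma adjusted p = 0.000874) and by 0.88 ± 0.173 in MREmx1-cre (limma adjusted p = 0.00769).

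Ccl17 lies on chromosome 8, as does Nr3c2, with 135 tested genes between them in the RefSeq gene order. None of the 20 tested neighbours of Ccl17, 10 on either side, was called in GREmx1-cre against dflox. Around Nr3c2, 49 of 200 genes were called within 100 tested genes (24.5%) and 18 of 200 from 101 to 200 genes away (9%). Ccl17 lies at the distance of the second window, and 3.15% of all tested genes were called in this comparison. By the crosses described, dflox, MREmx1-cre and GRMREmx1-cre carry a floxed Nr3c2 allele and GREmx1-cre does not. The part of linked sequence in the differences of Ccl17 between GREmx1-cre and the other groups was not tested.

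Microglia respond to chemokines and make several of them, and their markers were set beside these genes. In GREmx1-cre, 1 of 13 microglia markers rose and 1 fell, Gpr34 by -0.31 ± 0.0551 (limma adjusted p = 0.0122). In GRMREmx1-cre, 11 of 13 rose, beside 11.4% of all tested genes, among them Gpr34 by 0.52 ± 0.0595 (limma adjusted p = 0.000177), and the summed level of the list ran from 5.58 to 5.82 against 5.23 to 5.37 in dflox. In MREmx1-cre 5 of 13 rose, with a summed level from 5.50 to 5.58. Of all tested genes, 3.15% were called in GREmx1-cre and 6.81% in MREmx1-cre, in either direction. The part of microglia in the chemokine differences was not tested.

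A single ligand passed the test in the mice lacking MR alone. In MREmx1-cre against dflox, 1 of the 29 genes rose and 0 fell, a share of 3.45% beside 6.81% of all tested genes. At an unadjusted p below 0.05 the count was 3, beside 21.9% of all tested genes. The gene was Ccl12, a ligand of Ccr2 that attracts monocytes. It stood at -3.93, -4.16, -4.24 and -3.77 in dflox and at -3.83, -3.01, -2.75 and -3.52 in MREmx1-cre, so the groups overlapped. The rise was 0.74 ± 0.206 (limma adjusted p = 0.0489), and the call was lost in 14 of 15 fits that left out an array, with adjusted p-values from 0.0129 to 0.119. In GREmx1-cre Ccl12 stood at -3.27, -3.60, -3.56 and -3.52 and in GRMREmx1-cre at -3.70, -3.30 and -3.22, with differences of 0.53 ± 0.206 and 0.62 ± 0.222 that did not pass the test (limma adjusted p = 0.181 and 0.0797).

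In the mice lacking both receptors, the genes that passed the test were all higher than in dflox. In GRMREmx1-cre against dflox, 6 of 29 genes rose and 0 fell, a share of 20.7% beside 16.3% of all tested genes called in either direction and 11.4% called higher. At an unadjusted p below 0.05 the count was 12, beside 29.6% of all tested genes. They were the CC ligands Ccl4 and Ccl28, the CXC ligands Cxcl5 and Cxcl16, and the CC receptors Ccr3 and Ccr6. The median difference of the 29 genes was 0.22 beside 0.03 over all genes, and 21 of 29 (72.4%) lay above 0, as did 56.8% of all tested genes. Of all tested genes with a mean level below -5, 71.7% lay above 0 and 13.3% rose, with a median of 0.30. From -5 to -4 these values were 70.2%, 19.4% and 0.16. Several of the 29 genes are this dim, and the part of this shift in their counts was not tested. In 8 of the 29 genes every GRMREmx1-cre array was above every dflox array, which held for 19.3% of all tested genes. Of all genes called, 70.2% rose, 63.3% with quantile normalization and 47.3% with median scaling, and of the 29 chemokine genes 2 and 3 were called with these alternatives in place of 6. The count was 2 without GRMREmx1-cre replicate 2 and 3 without dflox replicate 2 or GREmx1-cre replicate 3. In GREmx1-cre the share of rises among all calls was 71.8%, 56.3% and 56.1% under these settings, and in MREmx1-cre it was 61.8%, 53.4% and 50.9%.

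Cxcl5, a ligand of Cxcr2 that attracts neutrophils, stood at -3.16, -2.91, -2.01 and -3.49 in dflox and at -0.68, -0.24 and -0.02 in GRMREmx1-cre. The lowest GRMREmx1-cre array was above the highest array of every other group. The rise was 2.58 ± 0.423 (limma adjusted p = 0.00149). In GREmx1-cre Cxcl5 stood at -2.61, -2.85, -2.33 and -2.32 and in MREmx1-cre at -2.13, -4.04, -3.79 and -2.97, with differences of 0.37 ± 0.391 and -0.34 ± 0.391 that did not pass the test (limma adjusted p = 0.663 and 0.666). GRMREmx1-cre exceeded GREmx1-cre by 2.21 ± 0.423 (limma adjusted p = 0.00415) and MREmx1-cre by 2.92 ± 0.423 (limma adjusted p = 0.00315). On chromosome 5, 3 of its 20 tested neighbours were called in GRMREmx1-cre against dflox, Afp, Afm and Parm1, beside 16.3% of all tested genes. The receptor of Cxcl5, Cxcr2, was well above background on 1 array. Of 7 tested neutrophil markers 1 rose, Csf3r by 0.57 ± 0.109 (limma adjusted p = 0.00382), beside 11.4% of all tested genes called higher. In MREmx1-cre, where Cxcl5 did not pass, 1 of the 7 rose as well, beside 6.81% of all tested genes called in either direction. The summed level of the neutrophil list ran from -1.01 to 0.31 in GRMREmx1-cre and from -1.01 to -0.48 in dflox, and the part of neutrophils was not tested.

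Ccl4, a CC ligand that attracts macrophages and T cells, stood at -4.35, -4.27, -4.39 and -4.60 in dflox and at -3.03, -3.04 and -3.52 in GRMREmx1-cre. The groups did not overlap, and the rise was 1.21 ± 0.183 (limma adjusted p = 0.000939). In GREmx1-cre it stood at -3.99, -4.08, -3.83 and -4.70 and in MREmx1-cre at -4.19, -4.31, -4.17 and -4.0, with differences of 0.25 ± 0.169 and 0.24 ± 0.169 that did not pass the test (limma adjusted p = 0.451 and 0.455). GRMREmx1-cre exceeded GREmx1-cre by 0.95 ± 0.183 (limma adjusted p = 0.00431) and MREmx1-cre by 0.97 ± 0.183 (limma adjusted p = 0.014), the last lost without GRMREmx1-cre replicate 1 or 2 (adjusted p up to 0.0802).

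Ccl3, which lies beside Ccl4 on chromosome 11, stood at -4.60, -5.30, -4.13 and -5.34 in dflox and at -3.98, -3.91 and -4.17 in GRMREmx1-cre. The difference of 0.82 ± 0.289 did not pass the test (limma adjusted p = 0.0725), and dflox replicate 3 lay within the range of GRMREmx1-cre. In MREmx1-cre Ccl3 stood at -5.29, -5.40, -5.07 and -4.56. In GREmx1-cre it stood at -5.40, -4.89, -4.77 and -5.36, and against that group it rose by 1.08 ± 0.289 (limma adjusted p = 0.0236). That call was lost on leaving out GREmx1-cre replicate 1 or 4 or any GRMREmx1-cre array, with adjusted p-values up to 0.0845. Against dflox, leaving out dflox replicate 3 brought the adjusted p to 0.016.

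Ccl28, a ligand of Ccr3 and Ccr10, stood at -5.53, -5.69, -5.52 and -5.60 in dflox, at -5.14, -5.64, -5.23 and -4.97 in GREmx1-cre, at -5.73, -6.01, -5.97 and -5.64 in MREmx1-cre and at -5.05, -4.79 and -5.18 in GRMREmx1-cre. It rose in GRMREmx1-cre by 0.58 ± 0.145 over dflox (limma adjusted p = 0.0167) and by 0.83 ± 0.145 over MREmx1-cre (limma adjusted p = 0.00876). MREmx1-cre lay below GREmx1-cre by -0.59 ± 0.134 (limma adjusted p = 0.0157). The calls over dflox and MREmx1-cre were lost without GRMREmx1-cre replicate 2 (adjusted p = 0.0872 and 0.0596).

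Cxcl16, the ligand of Cxcr6, stood at -3.50, -3.73, -3.48 and -3.81 in dflox and at -3.08, -3.11 and -3.32 in GRMREmx1-cre. The groups did not overlap, and the rise was 0.46 ± 0.144 (limma adjusted p = 0.0487). In GREmx1-cre Cxcl16 stood at -3.08, -3.55, -3.20 and -3.40 and in MREmx1-cre at -3.60, -3.42, -3.02 and -3.45, which overlaps both other groups. The call was lost in 10 of 15 fits that left out an array, and the other probe of Cxcl16 differed by 0.17 ± 0.264. Ccl24, a ligand of Ccr3, did not pass with the probe used (0.51 ± 0.188, limma adjusted p = 0.0879), while its other probe differed by 0.79 ± 0.17 (adjusted p over all probes 0.0079, limma).

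Ccr3, a receptor of eosinophils that binds Ccl24 and Ccl28, stood at -5.22, -5.50, -5.70 and -5.74 in dflox and at -5.39, -4.81 and -4.80 in GRMREmx1-cre. The groups overlapped, and the rise was 0.54 ± 0.162 (limma adjusted p = 0.0387), lost in 6 of 15 fits that left out an array. In GREmx1-cre Ccr3 stood at -5.04, -5.33, -5.15 and -5.01 and in MREmx1-cre at -5.19, -5.41, -5.30 and -5.03, and neither passed the test. Ccr6, the receptor of Ccl20, stood at -5.65, -5.69, -5.32 and -5.26 in dflox and at -5.10, -5.10 and -4.67 in GRMREmx1-cre. It rose by 0.52 ± 0.16 (limma adjusted p = 0.0426), lost in 9 of 15 such fits. In MREmx1-cre Ccr6 stood at -5.46, -5.58, -5.23 and -4.99, which overlaps dflox. In GREmx1-cre it stood at -5.16, -4.84, -4.90 and -4.93, above every dflox array, with a difference of 0.52 ± 0.148 that did not pass the test (limma adjusted p = 0.0783).

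These last genes were dim, and dim genes as a whole lay higher in GRMREmx1-cre and, by less, in GREmx1-cre and MREmx1-cre. Over all tested genes with a mean level below -5, where Ccl28, Ccr3 and Ccr6 lie, the median difference of GRMREmx1-cre from dflox was 0.30. It was 0.16 from -5 to -4, 0.10 from -4 to -3 and -0.02 above 0. Below -5 the median was 0.12 in GREmx1-cre and 0.15 in MREmx1-cre, and from -5 to -4 it was 0.08 and 0.09. The part of this shift in the rises of Ccl4, Ccl28, Ccr3, Ccr6 and Cxcl16, or of Ccl12 in MREmx1-cre, was not tested.

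**Figure D2:**
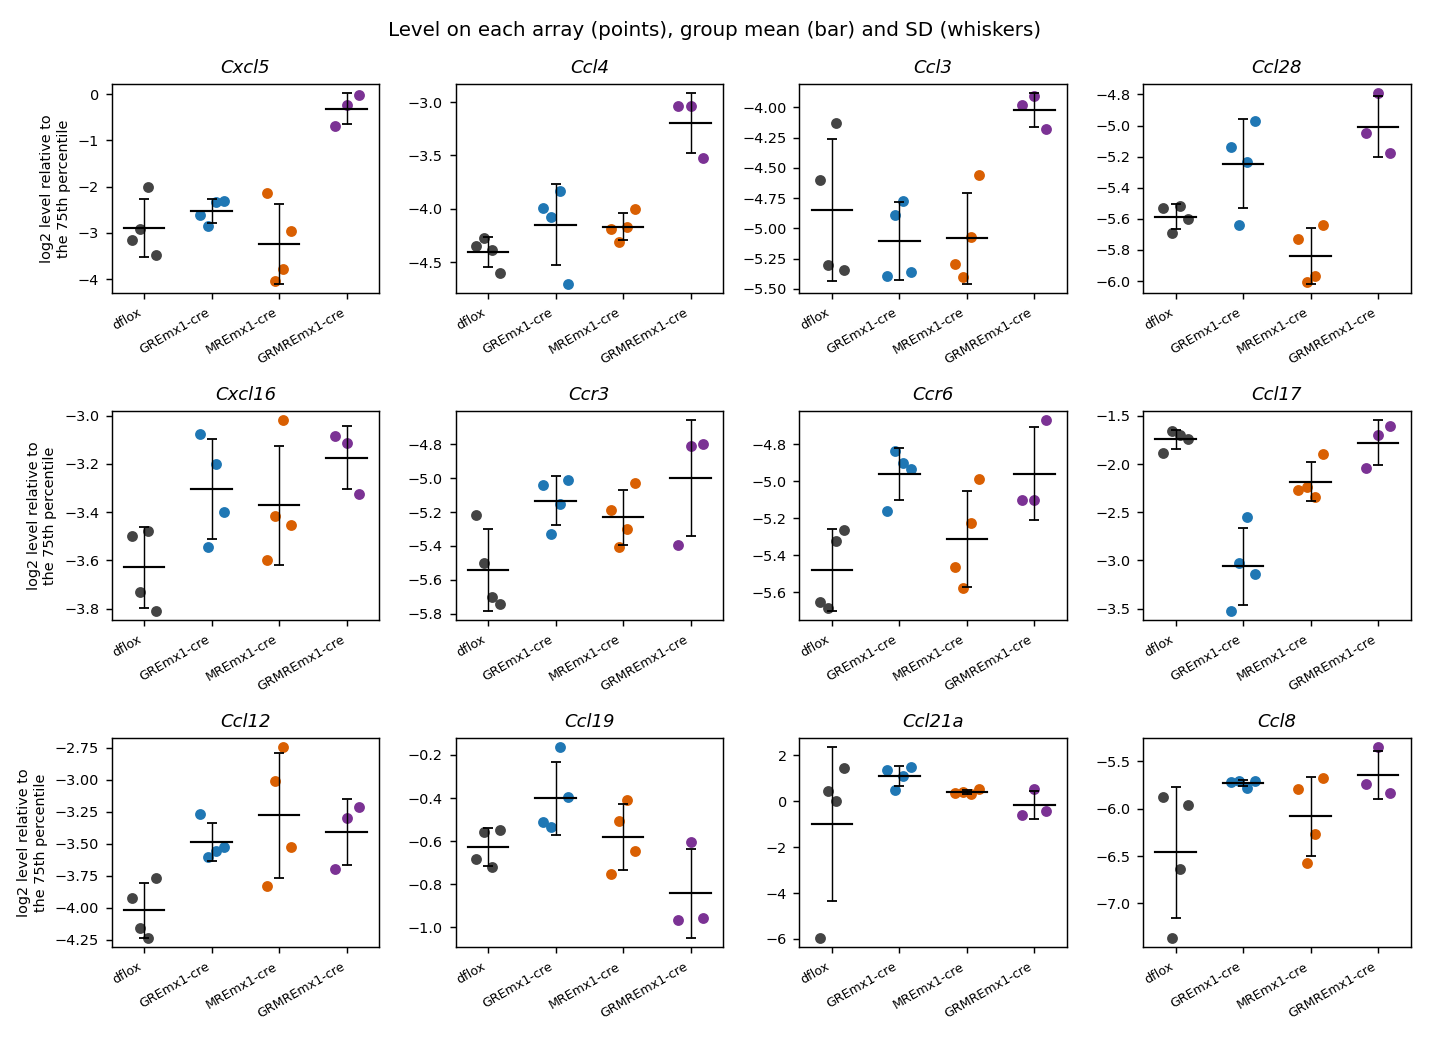
Log2 level relative to the 75th percentile of the array (vertical axes, each on its own scale) of 12 chemokine genes on each array by group, with the group mean as a bar and the SD as whiskers. Cxcl5 and Ccl4 are high in all 3 GRMREmx1-cre arrays, Ccl17 is low in all 4 GREmx1-cre arrays, and dflox replicate 1 stands at -5.95 for Ccl21a.

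The double loss was also set against each single loss. In GRMREmx1-cre against GREmx1-cre, 4 of the 29 genes rose and 1 fell (17.2% beside 16.1% of all tested genes), and without GRMREmx1-cre replicate 1 or 3 the count was 3. Ccl17, Ccl3, Ccl4 and Cxcl5 rose, and Ccl19, a ligand of Ccr7, fell by -0.44 ± 0.115 (limma adjusted p = 0.0208), from -0.51, -0.53, -0.17 and -0.40 to -0.97, -0.60 and -0.96. Its dflox values of -0.68, -0.56, -0.72 and -0.55 lay below every GREmx1-cre array and overlapped GRMREmx1-cre, and its MREmx1-cre values of -0.75, -0.51, -0.41 and -0.65 overlapped both. The fall of Ccl19 against GREmx1-cre was lost in 3 of 15 fits that left out an array, with limma adjusted p-values up to 0.0894. Its other probe differed there by -0.36 ± 0.142 (adjusted p over all probes 0.106, limma). Ccl19 has near-identical copies in the mouse genome, so its probe may read more than 1 gene, and the same holds for Ccl21a and Ccl27a. In GRMREmx1-cre against MREmx1-cre, 3 genes rose and 0 fell (10.3% beside 2.98%), Cxcl5, Ccl4 and Ccl28, and 1 gene was called without GRMREmx1-cre replicate 2. In MREmx1-cre against GREmx1-cre, 1 rose and 1 fell (6.90% beside 9.33%), Ccl17 above and Ccl28 below. The comparisons share arrays, so their counts are not independent.

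**Figure D3:**
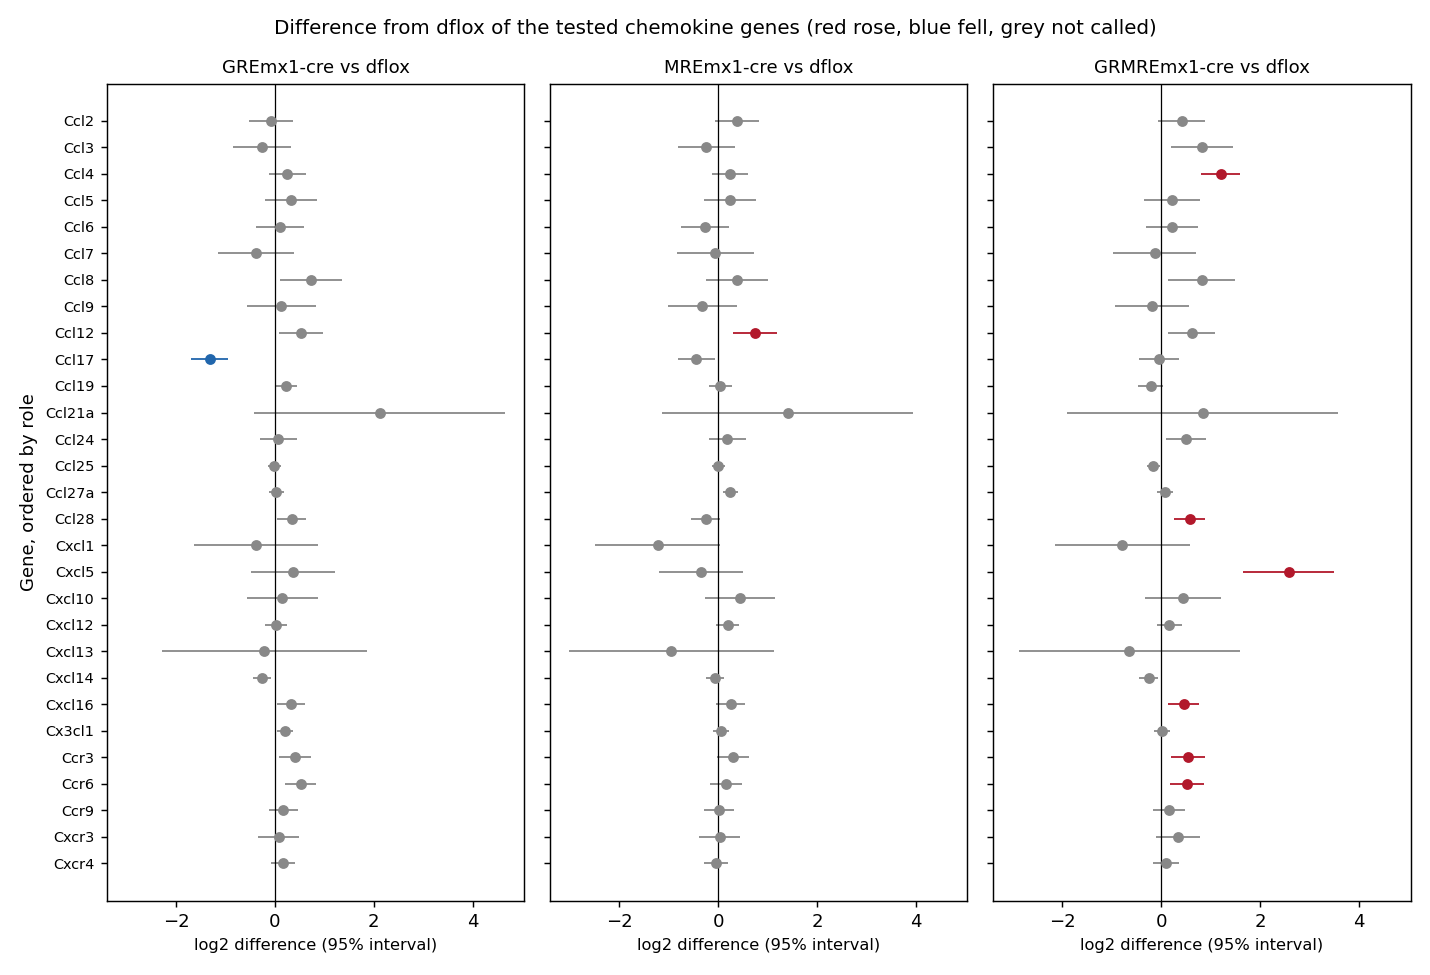
Log2 difference from dflox with its 95% interval (horizontal axes) of the 29 tested chemokine genes, ordered by role (vertical axis), in the 3 knockout groups, with red for genes that rose, blue for genes that fell and grey for the rest. The counts are 1 fall in GREmx1-cre, 1 rise in MREmx1-cre and 6 rises in GRMREmx1-cre.

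The interaction asks whether losing both receptors differs from the sum of the single losses on the log2 scale. It passed the test in 1 of 29 genes (3.45% beside 1.29% of all tested genes), Ccl17, and the count was 2 without MREmx1-cre replicate 1. For Ccl17 the single differences summed to -1.76 and the joint difference was -0.04, an interaction of 1.72 ± 0.255 (limma adjusted p = 0.00916). The part of sequence linked to the floxed Nr3c2 allele, which only GREmx1-cre lacks by the crosses described, was not tested. For Cxcl5 the sum was 0.03 and the joint difference 2.58, and the interaction of 2.55 ± 0.576 did not pass (limma adjusted p = 0.0511), with adjusted p-values from 0.0182 to 0.129 on leaving out an array.

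**Figure D4:**
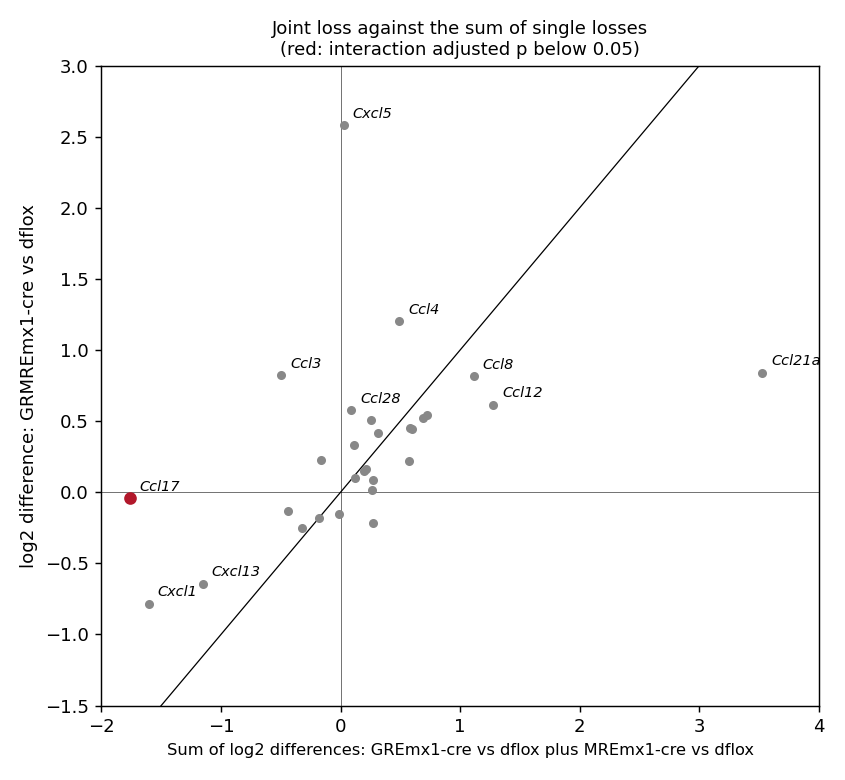
Log2 difference of GRMREmx1-cre from dflox (vertical axis) against the sum of the differences of GREmx1-cre and MREmx1-cre from dflox (horizontal axis) for the 29 tested chemokine genes, with the diagonal marking equality. Ccl17 (red, interaction passed) lies above the diagonal, as does Cxcl5, and Ccl21a lies at the far right with dflox replicate 1 at -5.95.

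Several genes had a wide range over the arrays. Ccl21a stood at -5.95, 0.43, 0.02 and 1.45 in dflox, and from -0.61 to 1.48 on all arrays of the other groups, so dflox replicate 1 sets its differences of 2.12 ± 1.17, 1.41 ± 1.17 and 0.84 ± 1.27, of which none passed. Cxcl13, a B cell attractant, was well above background on 3 arrays and ran from -8.66 to -3.03. Cxcl1, a ligand of Cxcr2, ran from -8.29 to -4.71, and its differences of -0.38 ± 0.58, -1.22 ± 0.58 and -0.78 ± 0.627 did not pass. Cxcl10, an interferon-induced ligand of Cxcr3, ran from -5.58 to -3.84, and its differences of 0.15 ± 0.331, 0.45 ± 0.331 and 0.44 ± 0.357 did not pass either. The receptors Cxcr4 (0.16 ± 0.112, -0.03 ± 0.112 and 0.10 ± 0.121) and Ccr9 (0.17 ± 0.139, 0.02 ± 0.139 and 0.15 ± 0.15) did not pass in GREmx1-cre, MREmx1-cre or GRMREmx1-cre.

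Atypical chemokine receptors were set beside the classical ones. Of 10 atypical receptors and related genes, 0 passed in GREmx1-cre, 1 rose and 2 fell in MREmx1-cre, and 0 rose and 3 fell in GRMREmx1-cre. Of all tested genes, 3.15%, 6.81% and 16.3% were called in these groups. Ackr3, which scavenges Cxcl12, fell by -0.63 ± 0.0748 in MREmx1-cre (limma adjusted p = 0.00052) and by -0.78 ± 0.0808 in GRMREmx1-cre (limma adjusted p = 0.000102). Ackr1, which binds many CC and CXC ligands on endothelium and red cells, fell by -0.39 ± 0.0782 and -0.30 ± 0.0845, and Ackr2, a scavenger of CC ligands, fell in GRMREmx1-cre by -0.61 ± 0.119 (limma adjusted p = 0.00423). Cx3cr1, the microglial receptor of Cx3cl1, rose in MREmx1-cre by 0.45 ± 0.115 (limma adjusted p = 0.0364).

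The counts of the pathway lists are to be read beside the 3.15%, 6.81% and 16.3% of all tested genes called in GREmx1-cre, MREmx1-cre and GRMREmx1-cre. Of 17 tested genes of chemokine receptor signalling, 0 passed in GREmx1-cre, 2 rose and 1 fell in MREmx1-cre, and 1 rose and 1 fell in GRMREmx1-cre, where the kinase Ptk2b fell by -0.62 ± 0.0832 (limma adjusted p = 0.000437). Of 14 tested genes of the NF-kB pathway and its inducers, 0 passed in GREmx1-cre, 1 fell in MREmx1-cre, and 1 rose and 2 fell in GRMREmx1-cre. The interleukin-1 receptor Il1r1 fell by -1.16 ± 0.163 in MREmx1-cre (limma adjusted p = 0.00136) and by -1.38 ± 0.176 in GRMREmx1-cre (limma adjusted p = 0.000314), and the NF-kB inhibitor Nfkbia fell in GRMREmx1-cre by -0.46 ± 0.131 (limma adjusted p = 0.0309). Of 13 genes of the interferon route, Ifit3 rose by 0.58 ± 0.137 in GREmx1-cre (limma adjusted p = 0.0378) and by 1.09 ± 0.148 in GRMREmx1-cre (limma adjusted p = 0.000452), and Ifnar1 fell in GREmx1-cre by -0.37 ± 0.0581 (limma adjusted p = 0.00613). 

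Markers of blood-derived cells were set beside the ligands, and 16.3% of all tested genes were called in GRMREmx1-cre, with 11.4% called higher. In GRMREmx1-cre 4 of 5 tested T cell markers rose, among them Cd3e by 1.43 ± 0.221 (limma adjusted p = 0.00102) and Cd4 by 0.73 ± 0.0882 (limma adjusted p = 0.000225), with summed levels from -1.47 to -1.02 against -2.24 to -2.08 in dflox. In GREmx1-cre 2 of the 5 rose and in MREmx1-cre 3, beside 3.15% and 6.81% of all tested genes called in either direction. Cd3g, a part of the T cell receptor complex, was well above background on 0 arrays and Cd8a on 1. Of the 5 tested, Cd2 was so on 0 dflox, 1 GREmx1-cre, 0 MREmx1-cre and 2 GRMREmx1-cre arrays. It was thus tested only through GREmx1-cre and GRMREmx1-cre. Cd3d was so on 1, 1, 2 and 2. Cd4, Cd2 and Cd3d have mean levels below -5, where the median difference of all tested genes in GRMREmx1-cre was 0.30. The part of this shift in their differences was not tested. The integrin Itgax rose by 2.17 ± 0.377 (limma adjusted p = 0.00212) as the only one of 5 tested dendritic cell markers to pass, while Clec9a and Cd209a were well above background on 0 arrays. In GRMREmx1-cre 1 of 5 B cell, 4 of 8 astrocyte, 1 of 6 monocyte, 1 of 8 meningeal fibroblast and 1 of 10 excitatory neuron markers rose. In the same mice 1 astrocyte, 1 monocyte, 2 fibroblast, 4 excitatory neuron and 1 of 11 interneuron markers fell, and 0 of 6 perivascular macrophage, 0 of 8 endothelial and 0 of 8 choroid plexus markers passed. MREmx1-cre replicate 2 stood apart in choroid plexus markers, with a mean of -4.37 relative to all arrays. GREmx1-cre replicate 1 stood apart in B cell markers, with a summed level of -0.66 against -2.87 to -2.54 on the other arrays of its group. The part of these cells in the chemokine differences was not tested.

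**Figure D5:**
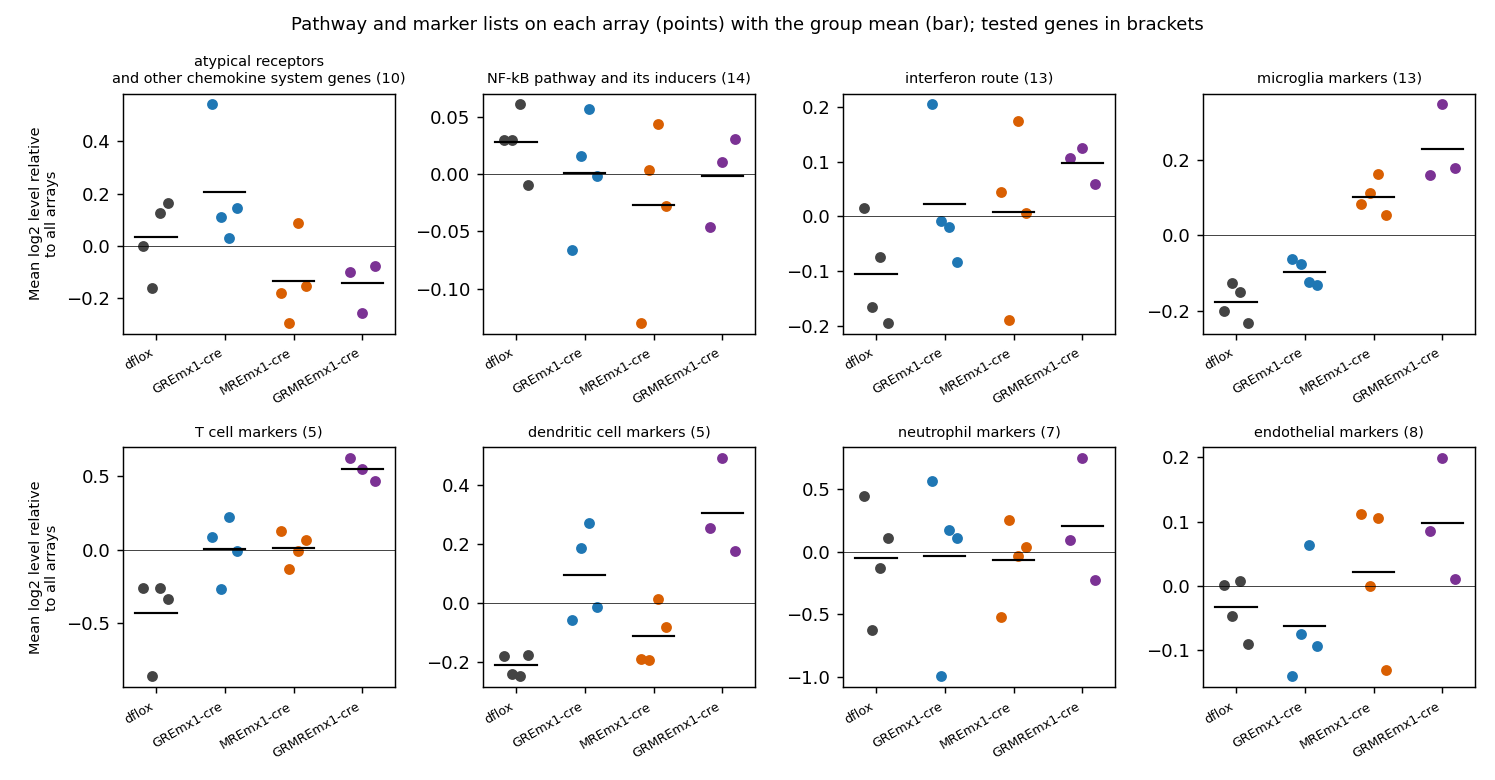
Mean log2 level of each list relative to its mean over all arrays (vertical axes, each on its own scale) on each array by group for 8 pathway and marker lists, with the group mean as a bar. The microglia and T cell lists are higher on all 3 GRMREmx1-cre arrays than on any dflox array, and the NF-kB list overlaps between all groups.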

How the data were processed

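The submitters' processing notes name Agilent Feature Extraction 12.0. The signal used is a background-corrected intensity in arbitrary units, per the file headers, and other columns hold flags of 0 or 1 that mark outlying spots, saturation and signal well above background. The table of intensities the authors deposited was equal to these files at all 45018 spots of every array.

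Intensities were put on the log2 scale, minus the 75th percentile of the array over 43379 spots that were not controls. The 1281 spots flagged as outliers were dropped and spots of a probe averaged (41174 probes). Accessions were matched without version to a RefSeq table of GRCm38.p6, while the array was designed on mm9: 28215 probes had 1 symbol, 0 several and 12959 none. The test took the 30873 probes that exceeded background clearly on 3 or more arrays and kept the probe of highest mean for each gene (22864 genes). A group means model over 15 arrays was fitted with limma 3.58.1 (lmFit, eBayes) in R 4.3.3, with Benjamini-Hochberg adjustment at 0.05 for 7 comparisons, and the script was tested on simulated data. Intervals are 95% intervals. The number of arrays limits the precision.

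Values are given on every array for genes past the threshold, and others by range. From each pathway or marker list up to 3 genes of smallest adjusted p are named by rule, with others (Cd4, Gpr34, Cd3g, Cd8a, Clec9a, Cd209a and Csf3r) named after their values were seen. The fit took in 1 further gene of the rule, which is not reported here. The genes and lists were chosen with earlier results of these data known. Normexp was run on the median signal, since the files hold no mean signal column. Plots were made in Python 3.11.15 with matplotlib 3.10.9.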

Additional observations from a re-analysis of the deposited data

Results flagged for a closer look

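Of 102 groups of 4 arrays, over 34 genes with at least 1 array well above background, 3 held an array far from the other 3, and chance gives about 1 in 20 groups. Ccl5 stood at -3.07 in dflox replicate 1, against -3.70 to -3.62. Cxcl10 stood at -5.58 in GREmx1-cre replicate 4, against -4.30 to -4.12. Ccl22 stood at -6.21 in dflox replicate 3, against -8.70 to -8.38, and was not well above background there.

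The interaction of GR and MR loss passed the test for Ccl17 (1.72 ± 0.255, limma adjusted p = 0.00916). By the crosses described, only GREmx1-cre lacks a floxed Nr3c2 allele, and the part of linked sequence in this interaction was not tested.

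Among the genes that were not tested, a few single knockout arrays were well above background and brighter than every dflox array. Ccr10 stood at -3.77 in GRMREmx1-cre replicate 3, against -8.57 to -7.13 in dflox. Cxcr6 stood at -5.39 in GREmx1-cre replicate 4 and at -6.29 in MREmx1-cre replicate 3, against -8.69 to -6.75 in dflox. Ccl22 stood at -5.87 in MREmx1-cre replicate 3, against -8.70 to -6.21 in dflox. Only knockout arrays above dflox are listed here. Cxcl15 (highest level -3.83) and Cxcr2 (highest level -5.80) were also well above background on 1 array each and are not listed.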

How the results depend on the processing

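Of 19 calls of a chemokine gene in a comparison, 8 held under every alternative but normexp background correction: Ccl17 in GREmx1-cre, Cxcl5 and Ccl4 in GRMREmx1-cre, Ccl17, Ccl4 and Cxcl5 between GRMREmx1-cre and GREmx1-cre, Cxcl5 between GRMREmx1-cre and MREmx1-cre, and the interaction for Ccl17. No direction reversed in the results examined. In MREmx1-cre against dflox, where 1 gene was called, the count was 0 with quantile normalization, median scaling, only the arrays compared or normexp. It was also 0 with both arrays with outlying marker lists left out, which were chosen after seeing the data. These were GREmx1-cre replicate 1 (B cell markers) and MREmx1-cre replicate 2 (choroid plexus markers). The count in MREmx1-cre against dflox was 2 with eBayes using trend and robust. With no filter on dim probes the 1 call there was Xcl1, lower, in place of Ccl12. In GRMREmx1-cre against dflox the count of 6 became 2 with quantile normalization, 3 with median scaling and 3 with no filter on dim probes. Between MREmx1-cre and GREmx1-cre the count of 2 became 0 with only the arrays compared and 1 without both outlying arrays. The count of 1 interaction became 2 with quantile normalization and 2 with probes well above background on every array of a group. Leaving out each array in turn gave 1 to 2 calls in GREmx1-cre (2 without GREmx1-cre replicate 2), 0 to 2 in MREmx1-cre (2 without MREmx1-cre replicate 1, 1 without dflox replicate 2, which was Ccl27a in place of Ccl12, and 0 without any other array) and 2 to 7 in GRMREmx1-cre (2 without GRMREmx1-cre replicate 2, 3 without dflox replicate 2 or GREmx1-cre replicate 3), 3 to 6 between GRMREmx1-cre and GREmx1-cre, 1 to 4 between GRMREmx1-cre and MREmx1-cre, 2 between the single losses and 1 to 2 interactions (2 without MREmx1-cre replicate 1).

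With normexp the counts were 0 in GREmx1-cre, 0 in MREmx1-cre, 21 in GRMREmx1-cre, 20 against GREmx1-cre, 26 against MREmx1-cre, 0 between the single losses and 0 interactions. Its fitted background means were -30.6, -804 and -107 on the GRMREmx1-cre arrays and from -0.33 to 2.42 on the others, and the median of all genes in GRMREmx1-cre against dflox moved by 0.39.

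With the replicate number as a block the counts were 2, 0, 5, 5, 3, 3 and 1 in the order above. Ccr6 was then called in GREmx1-cre (adjusted p = 0.0177) and below GREmx1-cre in MREmx1-cre (adjusted p = 0.0448), and Cxcl14, lower, in GRMREmx1-cre (adjusted p = 0.045). Ccl12 in MREmx1-cre (adjusted p = 0.0724) and Ccr3 and Cxcl16 in GRMREmx1-cre (adjusted p = 0.0743 for both) were not called. The labels do not tie the numbers to a shared mouse, litter or day, and the arrays give a hint of pairing that falls short of every pair: over 21 pairs the correlation of deviations ran from -0.03 to 0.19, 6 exceeded 0.1, and arrays correlated best with their own number in 30 of 42 combinations. The median correlation was 0.074 for equal numbers and -0.023 for other pairs.

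Dim signal limits 21 genes that could not be tested, and 3 to 4 arrays per group limit the rest.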
